A study of Mus musculus with 8 samples.

Results

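REST, the RE1 silencing transcription factor, and a list of 29 of its neuronal target genes were followed in total RNA from mouse striatal cell lines on Affymetrix whole-genome arrays. The members were found by gene symbol. All probe sets annotated to exactly 1 member gene were used, which gave 56 probe sets for 29 of the 30 listed genes, out of 18193 genes named on the arrays. The glutamate receptor subunit gene Grin1 had no probe set of its own and was not analysed here. The groups were 4 samples of SThdh111/111 and 4 samples of SThdh7/7. Such lines were derived from the embryonic striatum of Huntingtin knock-in mice, a model of Huntington's disease, and their numbers give the polyglutamine length encoded by the 2 Htt alleles. Both lines carry the immortalising transgene, a temperature-sensitive SV40 large T antigen. Each group was a single line, so genotype and any other difference between the lines cannot be told apart. Whether the samples of a line are separate cultures is not given in the labels, and the p-values then reflect only how far these arrays differ among themselves, which may be technical variation.

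REST is a zinc-finger repressor that binds a DNA element called RE1 (also NRSE) in or near many neuronal genes. It recruits the CoREST and Sin3 corepressor complexes, which bring histone deacetylases and demethylases, and so keeps these genes silent in non-neuronal cells and in neural progenitors. Wild-type huntingtin is known to hold REST in the cytoplasm. In Huntington's disease models, expanded huntingtin holds it less well, REST enters the nucleus, and targets such as Bdnf are lowered. Arrays measure the mRNA of Rest and of its targets, and neither the amount nor the place of the REST protein.

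An RE1 match was looked for in the RefSeq promoter windows of GRCm38.p6, which run from 250 bases before to 50 bases after each start site. The matched motif was the left arm TTCAGCACC and the right arm GGACAG with NN between them, 15 fixed bases in all, on both strands. No other motif was searched. Of the 30 listed genes, 21 had a window, Grin1 among them, with 27 windows in all. The best matches among the members are printed below, in the direction of the motif, because they show which targets carry an RE1-like sequence close to the start site. Capitals mark the bases that match the motif. The count of matching bases and the position, counted from the start site at 0, follow in the next paragraph.
Syn1: TTCAGCACCgcGGtCAG
Gria2: TTtAGCACCgcGGACAG
Celsr3: TTCAGCACCgtGGgCAG
Rph3a: gTCAGtACCacGGACAG
Unc13a: TTCAGCACCggGGgCgc

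The match in Syn1, at chrX:20921134-20921150, held 14 of the 15 bases and lay from -232 to -216. Gria2 matched at 14 bases at chr3:80802989-80803005, from -170 to -154, on the strand opposite to the gene. Celsr3 also matched at 14 bases, at chr9:108825918-108825934, from -127 to -111. These are the 3 closest matches, and 0.0578% of all 32851 promoter windows held one as close. Rph3a matched at 13 bases at chr5:121009614-121009630, from -92 to -76 on the opposite strand. Unc13a matched at 12 bases at chr8:71671727-71671743, after the start site, from 14 to 30 on the opposite strand.

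At least 12 of the 15 bases matched in 5 member genes, or 18.5% of their 27 windows, against 1.17% of all windows. At least 13 matched in 14.8% of the member windows and 0.143% of all windows. The left arm was present without mismatch in 14.8% of the member windows and 0.371% of all windows, whereas the right arm, which is shorter, was present in 29.6% of the member windows and 22.2% of all windows. The member windows also had more G and C, with a median of 60.7% against 52.7% over all windows, and more CpG pairs, with a median of 19 against 7. A second list of REST targets, described further below, had 25 windows. At least 12 bases matched in 4% of them and at least 13 in 0%, and the left arm was present without mismatch in 0%. Several members are textbook RE1 genes, so the shares are given as a description of the lists. Not every member held a close match: the windows of the sodium channel gene Scn2a held at best 9 and 10 bases, as 94.5% and 47.2% of all windows did. A match is not a bound site, and RE1 elements can lie outside so short a window.

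**Figure D1:**
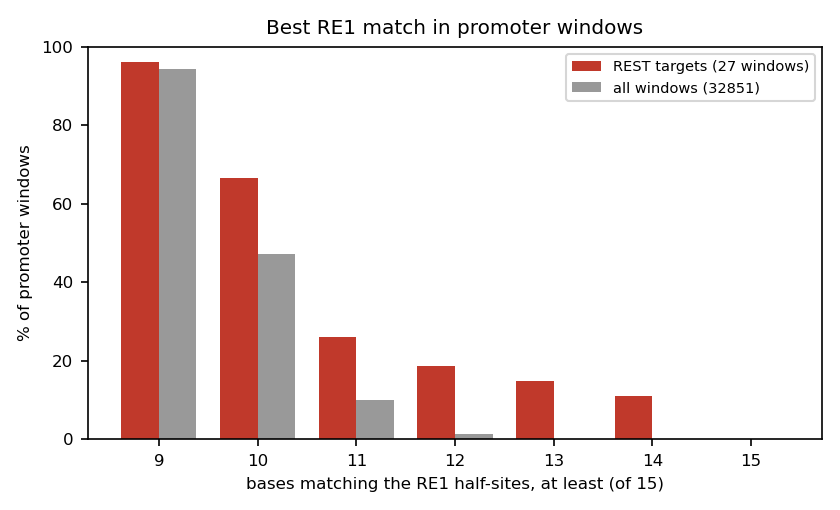
Share of RefSeq promoter windows (y axis, %) whose best RE1 match held at least the number of bases on the x axis (of 15), for the 27 windows of the listed genes (left bars) and all 32851 windows (right bars). At 12 or more bases the shares were 18.5% and 1.17%.

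The 250 bases before the start site of Syn1 are printed next, since its match was among the closest. Those of L1cam and Dnm1, the members that were higher in SThdh111/111, are printed with it. Capitals mark the best match, which in L1cam and Dnm1 is written on the gene's strand and runs against the motif.
Syn1, chrX:20920919-20921168, minus strand: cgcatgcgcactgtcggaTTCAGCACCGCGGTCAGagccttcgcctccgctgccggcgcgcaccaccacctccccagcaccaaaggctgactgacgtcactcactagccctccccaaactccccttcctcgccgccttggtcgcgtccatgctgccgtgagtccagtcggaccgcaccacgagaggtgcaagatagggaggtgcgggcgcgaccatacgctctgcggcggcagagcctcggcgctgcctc
L1cam, chrX:73880791-73881040, minus strand: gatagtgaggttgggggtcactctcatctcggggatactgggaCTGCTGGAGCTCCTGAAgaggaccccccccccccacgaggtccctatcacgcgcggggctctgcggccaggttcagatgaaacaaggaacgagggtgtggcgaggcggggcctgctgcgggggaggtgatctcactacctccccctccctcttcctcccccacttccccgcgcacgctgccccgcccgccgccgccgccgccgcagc
Dnm1, chr2:32353330-32353579, minus strand: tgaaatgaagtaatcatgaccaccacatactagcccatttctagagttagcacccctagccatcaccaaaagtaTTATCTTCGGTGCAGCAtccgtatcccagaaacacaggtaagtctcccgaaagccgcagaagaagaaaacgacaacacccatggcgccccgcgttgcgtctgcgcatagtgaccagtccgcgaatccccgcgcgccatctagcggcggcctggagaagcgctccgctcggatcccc

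The best match in both the L1cam and the Dnm1 window held 10 of the 15 bases, and 47.2% of all windows held one as close. No closer match is in these letters, which says nothing of RE1 elements elsewhere in the genes. Nor does it set them apart from Bdnf, a target of the second list that differed in the opposite direction. The windows of Bdnf held at best 9 or 10 bases. Stmn2, the member that differed in that direction, had no window, so its promoter was not searched. The neuropeptide gene Scg2 held both arms without mismatch but with no spacer bases between them, at chr1:79440025-79440041 from -15 to 1, which scores 10 of 15 with the spacing used here.
Scg2: TTCAGCACCggacAgct

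Values are log2 intensities, and a floor was set at an intensity of 130 (log2 7.02), taken from 27 bacterial control probe sets as their 95th percentile on the array where it was highest. Levels below it were not told apart from background here, which is strict for the arrays on which this percentile was lower. SThdh7/7 samples 1 and 2 differed from the rest in brightness, with median intensities of 173.9 and 174.01 against 136.23 to 146.96 in SThdh111/111 and 137.68 and 139.66 in the other SThdh7/7 samples, and the floor came from SThdh7/7 sample 2. The background differed between the lines as a whole: the same percentile of the bacterial controls was 72.0 to 77.5 on the SThdh111/111 arrays and 98.7 to 130 on the SThdh7/7 arrays. The mean log2 signal of hybridisation controls was lower only in SThdh7/7 samples 1 and 2, at 11.64 and 11.50, against 11.99 to 12.28 in SThdh111/111. SThdh7/7 samples 3 and 4 had 12.118 and 12.015. Correlations over all probe sets were 0.9224 to 0.9238 within SThdh111/111, 0.9058 to 0.9269 within SThdh7/7 and 0.8663 to 0.8847 between the lines. Over all kept probe sets, SThdh111/111 minus SThdh7/7 had a median of -0.12 with all arrays and -0.03 without SThdh7/7 samples 1 and 2.

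Rest mRNA was bright in both lines and its lines overlapped. Its brightest probe set gave 10.62, 10.68, 10.63 and 10.54 on the SThdh111/111 arrays, against 10.44, 10.60, 10.42 and 10.39 on the SThdh7/7 arrays. SThdh7/7 sample 2 reached into the SThdh111/111 range, while the other SThdh7/7 samples lay under it. The means were 10.62 ± 0.06 in SThdh111/111 and 10.46 ± 0.10 in SThdh7/7 (SD, n = 4 each), a difference of 0.16 ± 0.08 (SE), with a 95% interval of -0.01 to 0.32 and an adjusted p of 0.18 in limma's moderated test. The size depended on the scaling: with arrays centred on their medians the difference was 0.31, adjusted p = 0.075. A second probe set was bright as well, with 10.11, 10.27, 10.05 and 9.81 in SThdh111/111 against 9.95, 9.86, 9.85 and 9.82 in SThdh7/7. It differed by 0.19 (95% interval -0.03 to 0.41), adjusted p = 0.23. The remaining probe sets of Rest had means of 6.77 and 6.09 in SThdh111/111 and 6.72 and 5.45 in SThdh7/7, below the floor, and neither was called.

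Most of the neuronal targets were near or below the floor in both lines. Only 6 of the 28 measured targets were above it on all 8 arrays: the vesicle-cycle genes Stx1a, Cplx1 and Dnm1, the adhesion gene L1cam, the nicotinic receptor subunit Chrnb2 and the kinase scaffold Mapk8ip1. With Rest these made 7 of 29 member genes, while 14 were above the floor on some arrays and 8 on none. The 8 were Snap25, Scn2a, Scg3, Chgb, Tubb3, Nefm, Vgf and Atp2b2, which stand for vesicle fusion, sodium channels, dense-core granules, the neuronal cytoskeleton and calcium export. Among all 18193 named genes, 9860 were above the floor on all arrays. The median level of the members was 6.59 in SThdh111/111 and 6.78 in SThdh7/7, while over all named genes it was 8.08 in SThdh111/111 and 8.17 in SThdh7/7.

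**Figure D2:**
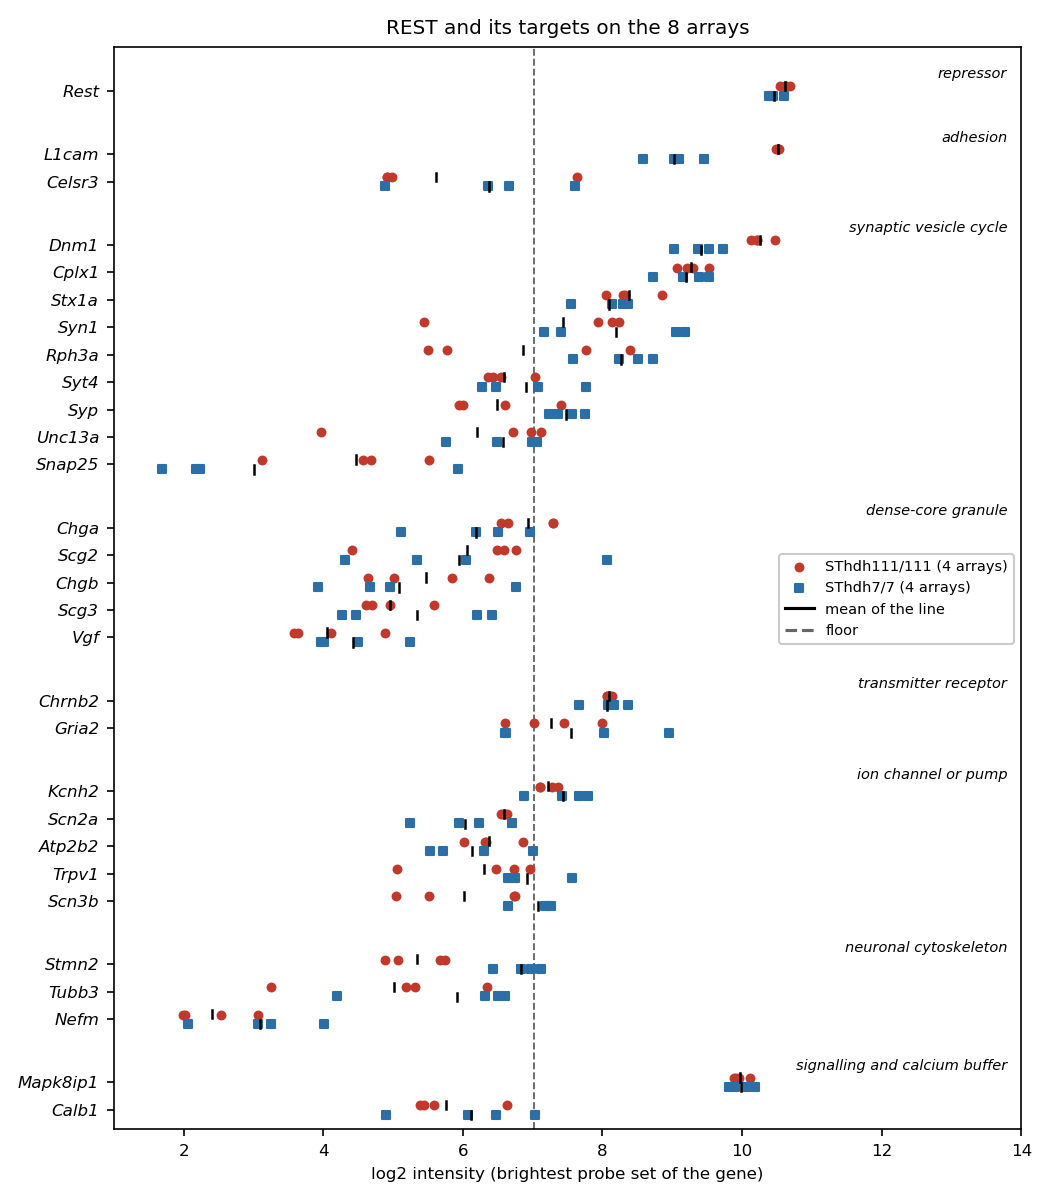
Log2 intensity (x axis) of the brightest probe set of Rest and each measured target (rows), by array, with SThdh111/111 drawn above SThdh7/7 in each row and the mean of a line as a short black bar. The dashed line is the floor at 7.02, and 7 of the 29 genes lie above it on all 8 arrays.

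Of the 28 member genes tested, 2 were higher in SThdh111/111 (L1cam and Dnm1) and 1 was lower (Stmn2), at an adjusted p under 0.05. Over all 17380 named genes tested, 29% were called, 13.1% higher and 15.9% lower. Restricted to genes above the floor on all 8 arrays, 41.9% of all genes were called, 19% higher and 22.9% lower, and of the 6 targets in this range 2 were called, both higher. Nefm, the medium neurofilament chain, did not pass the filter on low values and was not tested. At the level of probe sets, 3 of the 47 tested were higher and 1 lower, against 22.4% called over all kept probe sets, 9.87% higher and 12.6% lower. The same 3 genes were those whose lines did not overlap, against 30.3% of all named genes. So few members, most of them dim, give these shares little precision.

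The median difference of the members was -0.28, against -0.10 for all named genes. Of the 28 targets, 17 differed downwards and 11 upwards before any test. Without SThdh7/7 samples 1 and 2 the median turned to 0.15 for the members and was -0.01 for all named genes. With all arrays kept but centred on their medians, it was -0.13 for the members and 0.06 for all named genes. With values below the floor set to the floor it was 0.00 for both. The summed intensity of the 28 targets ran from 6562 to 7216 in SThdh111/111 and from 4808 to 7245 in SThdh7/7, so the lines overlapped.

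**Figure D3:**
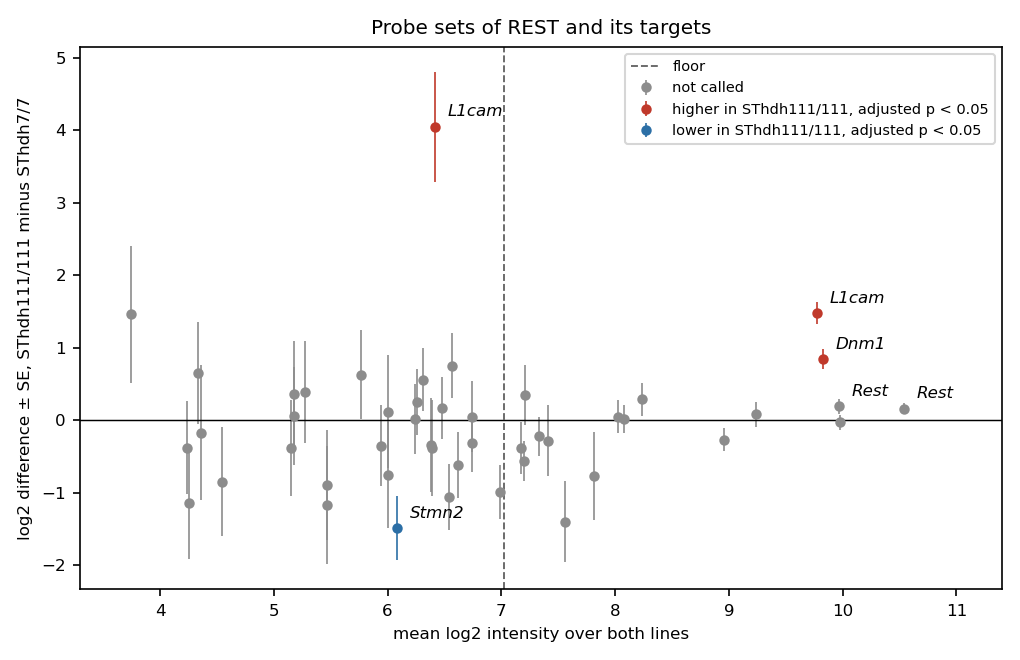
Log2 difference with its SE (y axis, SThdh111/111 minus SThdh7/7) against the mean log2 intensity (x axis) for each of the 47 tested probe sets of Rest and its targets. Called probe sets are coloured, and the SE of genes above the floor on all arrays (dashed line) was 0.08 to 0.23, against 0.43 to 0.95 for those below it on all arrays.

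L1cam, a cell adhesion molecule of growing axons, differed most among the bright members. It gave 10.49, 10.52, 10.53 and 10.51 in SThdh111/111, against 9.45, 9.09, 9.02 and 8.58 in SThdh7/7. Every SThdh111/111 array was above every SThdh7/7 array. The means were 10.51 ± 0.02 in SThdh111/111 and 9.03 ± 0.36 in SThdh7/7 (SD, n = 4 each), a difference of 1.48 ± 0.15 (SE; 95% interval 1.16 to 1.79), which is 2.79-fold, with an adjusted p of 4.3e-06. Its other probe set pointed the same way, with 8.55, 8.41, 8.50 and 8.30 in SThdh111/111 against 5.92, 6.20, 2.34 and 3.08 in SThdh7/7. All SThdh7/7 arrays were below the floor there, so that this probe set was at least 2.67-fold higher in SThdh111/111 (adjusted p = 0.0013). Such a bound is the SThdh111/111 mean taken over the floor. L1cam was called in all 20 alternative settings, with differences of 1.33 to 2.77.

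Celsr3, a cadherin-type receptor that guides axons and the other adhesion gene of the list, had means of 5.62 ± 1.35 in SThdh111/111 and 6.38 ± 1.13 in SThdh7/7. It was above the floor on 1 array of each line, and its adjusted p was 0.54.

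Dnm1, the neuronal dynamin that pinches off synaptic vesicles, was the other gene higher in SThdh111/111. Its brightest probe set gave 10.47, 10.21, 10.21 and 10.13 in SThdh111/111, against 9.72, 9.52, 9.37 and 9.03 in SThdh7/7, with no overlap. The means were 10.25 ± 0.15 in SThdh111/111 and 9.41 ± 0.29 in SThdh7/7 (SD, n = 4 each), a difference of 0.84 ± 0.14 (SE; 95% interval 0.55 to 1.14) or 1.79-fold, with an adjusted p of 4.0e-04. The second probe set of Dnm1 did not show this. It gave 8.17, 8.09, 8.20 and 7.75 in SThdh111/111 against 8.25, 7.36, 8.07 and 8.30 in SThdh7/7, a difference of 0.05 (95% interval -0.45 to 0.56; adjusted p = 0.91). The difference between the probe sets was not tested, and which transcripts each one reads was not examined here. Dnm1 was called in all 19 alternatives that gave a value, with differences of 0.45 to 1.05. The lowest came with the mean over both probe sets (adjusted p = 0.028). Both end in _a_at, so the setting without probe sets ending in _x_at, _s_at or _a_at gave Dnm1 no value.

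**Figure D4:**
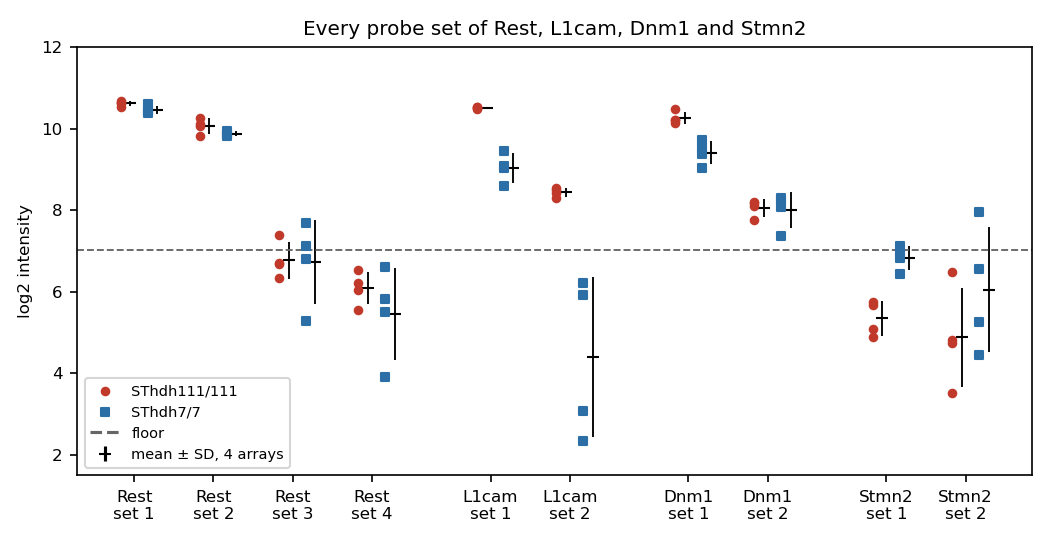
Log2 intensity (y axis) by array for every probe set of Rest, L1cam, Dnm1 and Stmn2 (x axis), with SThdh111/111 left of SThdh7/7, the floor at 7.02 as a dashed line, and the mean ± SD of the 4 arrays as a cross. Both L1cam probe sets are separated between the lines, and only the brighter of the Dnm1 probe sets is.

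The other bright vesicle-cycle genes did not differ beyond their spread. Stx1a, the plasma membrane SNARE syntaxin, gave 8.85, 8.05, 8.32 and 8.30 in SThdh111/111, against 8.37, 8.13, 8.30 and 7.55 in SThdh7/7. The difference was 0.29 (95% interval -0.19 to 0.78; adjusted p = 0.43), and its second probe set had the opposite sign, -0.56, with an adjusted p of 0.2. Cplx1, a complexin that clamps SNARE complexes, gave 9.07, 9.30, 9.21 and 9.52 in SThdh111/111 against 9.15, 8.72, 9.53 and 9.38 in SThdh7/7. Its difference was 0.08, with a 95% interval of -0.28 to 0.44. The other Cplx1 probe sets had the opposite sign and were not called, at -0.27 (95% interval -0.62 to 0.08) and -0.38 (95% interval -1.17 to 0.41). For both genes the lines were interleaved.

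Among the dimmer vesicle-cycle genes, Rph3a, a Rab3 effector, gave 5.77, 7.77, 8.39 and 5.50 in SThdh111/111 against 8.73, 8.51, 7.58 and 8.23 in SThdh7/7. SThdh111/111 samples 1 and 4 were below the floor and the other 2 were within the SThdh7/7 range. The difference of -1.40 ± 0.56 (SE) had an adjusted p of 0.097, and it was called only when SThdh111/111 sample 3 was left out (-1.92, adjusted p = 0.016). Syp, the vesicle protein synaptophysin, averaged 6.49 ± 0.68 in SThdh111/111 and 7.48 ± 0.23 in SThdh7/7, and was above the floor on 1 SThdh111/111 and 4 SThdh7/7 arrays. Its difference of -0.99 ± 0.37 (SE) had an adjusted p of 0.078, which passed at 0.022 only without SThdh111/111 sample 4, and its other probe set differed by 0.17.

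Syn1, the synapsin that ties vesicles to the cytoskeleton and the gene with the RE1 match printed first, averaged 7.43 ± 1.33 in SThdh111/111 and 8.20 ± 1.07 in SThdh7/7. SThdh7/7 samples 1 and 2, which stood apart on the whole arrays, were its highest at 9.06 and 9.18, and SThdh7/7 samples 3 and 4 had 7.16 and 7.40. SThdh111/111 gave 7.94, 8.13, 8.23 and 5.44. The adjusted p was 0.45, and over the 19 alternatives the difference ran from -1.11 to 0.15. Snap25, the SNARE partner of syntaxin, was below the floor on every array, at 3.13 to 5.51 in SThdh111/111 and 1.69 to 5.93 in SThdh7/7. Its difference of 1.46 had an adjusted p of 0.34. Unc13a, a vesicle priming factor, ran from 3.97 to 7.12 in SThdh111/111 and from 5.76 to 7.06 in SThdh7/7, above the floor on 1 array of each line (adjusted p = 0.76). Syt4, a synaptotagmin, averaged 6.59 ± 0.30 in SThdh111/111 and 6.90 ± 0.66 in SThdh7/7 (adjusted p = 0.66).

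Stmn2, a stathmin that regulates microtubules in growing axons, was the only member called lower. It gave 5.07, 4.88, 5.67 and 5.75 in SThdh111/111, against 6.97, 7.12, 6.43 and 6.83 in SThdh7/7. The lines did not overlap, yet 7 of the 8 values lay below the floor. The means were 5.34 ± 0.43 in SThdh111/111 and 6.83 ± 0.30 in SThdh7/7 (SD, n = 4 each), a difference of -1.49 ± 0.44 (SE) with an adjusted p of 0.026, and no fold is given since both means were under the floor. It was called in 10 of 19 alternatives. The call was lost without SThdh111/111 sample 1 (adjusted p = 0.059) or 2 (0.065), and without SThdh7/7 sample 1 (0.06), 2 (0.066) or 4 (0.058). Without SThdh7/7 samples 1 and 2 together the difference was -1.28, adjusted p = 0.15. With values under the floor set to it the difference was -0.02. The higher bacterial control signal of all SThdh7/7 arrays runs the same way as this difference, and its part in it was not tested. Its second probe set was lower in SThdh111/111 by 1.17 with an adjusted p of 0.38. The other cytoskeletal genes, the neuronal tubulin Tubb3 and the neurofilament Nefm, were below the floor on every array. Tubb3 ran from 3.25 to 6.34 in SThdh111/111 and from 4.20 to 6.60 in SThdh7/7 (adjusted p = 0.48), and Nefm from 1.99 to 3.07 in SThdh111/111 and from 2.07 to 4.01 in SThdh7/7.

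The ion channels and pump were dim throughout. Kcnh2, a potassium channel subunit, was the brightest of them at 7.22 ± 0.13 in SThdh111/111 and 7.44 ± 0.41 in SThdh7/7, a difference of -0.22 (95% interval -0.82 to 0.37; adjusted p = 0.65). Scn3b, an auxiliary sodium channel subunit, was above the floor on 0 SThdh111/111 and 3 SThdh7/7 arrays, with means of 6.01 ± 0.87 in SThdh111/111 and 7.07 ± 0.29 in SThdh7/7 and an adjusted p of 0.13. Trpv1, the capsaicin receptor channel, averaged 6.31 ± 0.86 in SThdh111/111 and 6.92 ± 0.43 in SThdh7/7 (adjusted p = 0.42). Scn2a, a pore-forming sodium channel subunit, and Atp2b2, a plasma membrane calcium pump, were below the floor on all arrays, with differences of 0.56 (adjusted p = 0.43) and 0.25 (adjusted p = 0.77).

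Of the transmitter receptors, Chrnb2 was evenly expressed, with 8.07, 8.13, 8.11 and 8.06 in SThdh111/111 against 8.08, 8.37, 8.17 and 7.67 in SThdh7/7. The SThdh111/111 values lay inside the SThdh7/7 range, and the difference was 0.02 (95% interval -0.39 to 0.43; adjusted p = 0.96). Gria2, the AMPA receptor subunit that limits calcium entry and one of the genes with a close RE1 match, ran from 6.61 to 7.99 in SThdh111/111 and from 6.61 to 8.96 in SThdh7/7, with an adjusted p of 0.76.

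Mapk8ip1, the JNK scaffold protein that travels with kinesin cargo, had the narrowest interval among the targets. It gave 9.88, 9.95, 10.12 and 9.91 in SThdh111/111, against 10.19, 9.90, 10.06 and 9.81 in SThdh7/7, and the lines were interleaved. The difference was -0.03, with a 95% interval of -0.25 to 0.20 and an adjusted p of 0.9. Calb1, the calcium buffer calbindin, averaged 5.76 ± 0.58 in SThdh111/111 and 6.12 ± 0.90 in SThdh7/7, with 1 of the 8 arrays above the floor.

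The dense-core granule genes, which serve regulated secretion, gave no call. Chga, a granin, averaged 6.94 ± 0.41 in SThdh111/111, with 2 arrays above the floor, and 6.19 ± 0.78 in SThdh7/7, with 0 (adjusted p = 0.29). Scg2, the gene with adjoining RE1 arms, ran from 4.41 to 6.76 in SThdh111/111 and from 4.31 to 8.06 in SThdh7/7, where only sample 1 was above the floor. Scg3, Chgb and Vgf were below it on every array, with means of 4.96, 5.47 and 4.05 in SThdh111/111 and 5.34, 5.08 and 4.43 in SThdh7/7.

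The genes through which REST acts were described from lists of their own. Of 19 corepressor genes with a probe set, all above the floor on all 8 arrays, 2 were higher in SThdh111/111, 5 were lower and 12 were not called, with a median difference of -0.13 against -0.10 over all named genes. The share called, 36.8%, is near the 41.9% over all genes above the floor on all arrays. Higher were Kdm5c, a histone H3K4 demethylase, at 9.71 ± 0.22 in SThdh111/111 and 8.85 ± 0.14 in SThdh7/7 (difference 0.86 ± 0.13 SE, adjusted p = 2.3e-04), and the deacetylase Hdac1, with a difference of 0.29 ± 0.06 (SE; adjusted p = 0.0029). Lower were the Polycomb genes Ezh2, at 9.33 ± 0.09 in SThdh111/111 against 10.63 ± 0.13 in SThdh7/7 (-1.30, adjusted p = 1.8e-07), and Suz12, at 9.82 in SThdh111/111 against 10.80 in SThdh7/7 (-0.98, adjusted p = 1.3e-06). The CoREST family member Rcor3 was lower by 0.55 as well (adjusted p = 0.0077). The founding CoREST gene Rcor1 and the demethylase Kdm1a, named for their role after their values were seen, differed by -0.31 and 0.05 and were not called. With the mean over each gene's probe sets the calls for Kdm5c (0.30, adjusted p = 0.39), Suz12 (-0.69, adjusted p = 0.062) and Rcor3 (-0.32, adjusted p = 0.44) were lost. Rcor3 was also lost when arrays were centred on their medians (-0.40, adjusted p = 0.11), and Hdac1 when no intensity trend was fitted (adjusted p = 0.065).

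Of 13 genes for the stability, splicing or localisation of REST, 4 were higher, 1 was lower and 8 were not called, with a median difference of 0.15. The share called, 38.5%, lies between the 29% over all named genes and the 41.9% over those above the floor on all arrays. Ctdsp2, a small phosphatase of the family that acts on REST in human cells, was at 12.79 ± 0.01 in SThdh111/111 and 11.95 ± 0.08 in SThdh7/7 (difference 0.84 ± 0.06 SE, adjusted p = 1.3e-07). That call was lost when probe sets ending in _x_at, _s_at or _a_at were left out and another probe set was read, with a difference of 0.45 (adjusted p = 0.057). Its relative Ctdsp1 was at 11.44 in SThdh111/111 and 11.06 in SThdh7/7 (0.37 ± 0.08 SE, adjusted p = 0.0039), a call lost when no intensity trend was fitted (adjusted p = 0.063). Hap1, the huntingtin-associated protein that belongs to the complex with REST and huntingtin, was at 9.34 ± 0.09 in SThdh111/111 and 8.58 ± 0.09 in SThdh7/7 (0.76 ± 0.11 SE, adjusted p = 2.2e-04). Usp7, a deubiquitinase that stabilises REST, was lower by 0.26 (adjusted p = 0.031) and was called in 10 of 20 alternatives. Htt itself was at 8.71 ± 0.30 in SThdh111/111 and 9.13 ± 0.18 in SThdh7/7, with an adjusted p of 0.084, and its probe set does not check the length of the repeat. Srrm4, the neuronal splicing factor that makes the truncated REST4 form, was above the floor on 1 of 8 arrays.

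**Figure D5:**
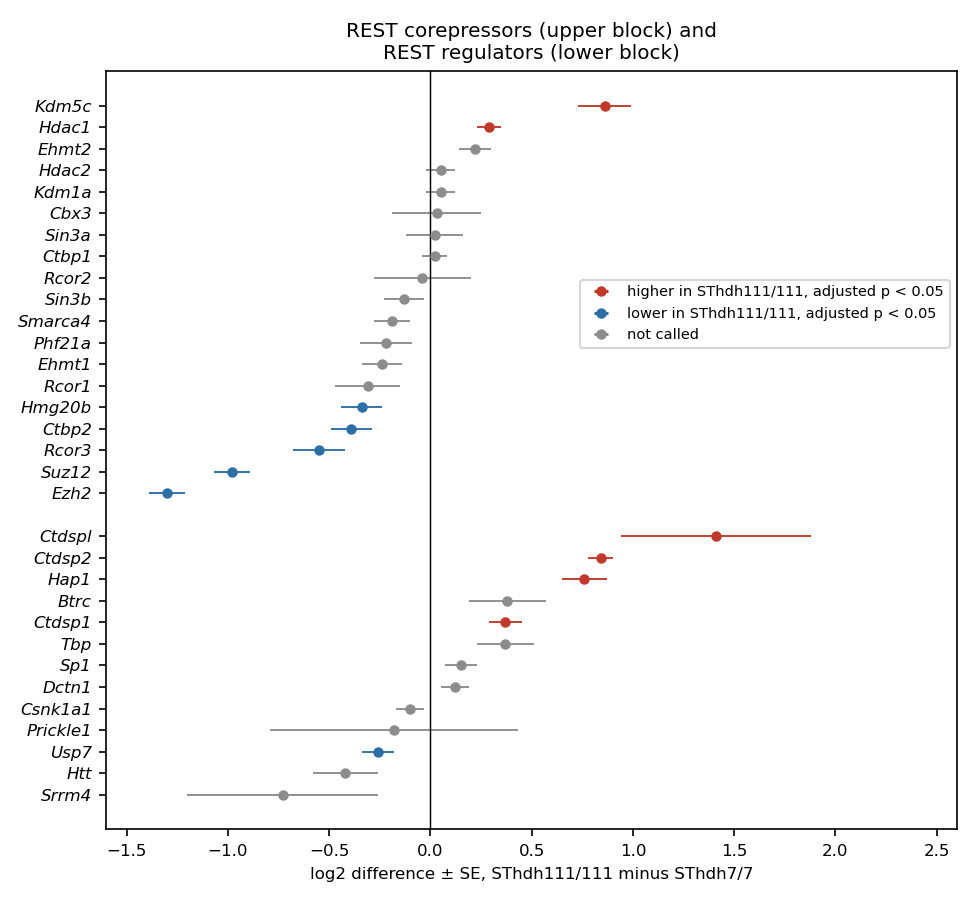
Log2 difference with its SE (x axis, SThdh111/111 minus SThdh7/7) for each measured corepressor gene (upper block) and each gene for REST stability, splicing or localisation (lower block), coloured where called. Ezh2 and Suz12 lie farthest to the left at -1.30 and -0.98.

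A second list of 21 REST targets outside the members was also dim, with 3 genes above the floor on all arrays, 10 on some and 8 on none. It gave 0 genes higher and 1 lower in SThdh111/111, Bdnf, the neurotrophin whose REST-dependent loss is known from Huntington models. Of the 20 genes tested, 5% were thus called, against 29% of all named genes. Bdnf gave 10.15, 9.77, 9.81 and 9.77 in SThdh111/111, against 10.32, 10.64, 10.54 and 10.69 in SThdh7/7, with no overlap. The difference was -0.67 ± 0.11 (SE), with an adjusted p of 4.4e-04, and it was called in all 19 alternatives that gave a value. The setting without probe sets ending in _x_at, _s_at or _a_at gave Bdnf none. The median difference of the list was -0.34, against -0.10 over all named genes. The called bright targets of both lists thus included L1cam and Dnm1, higher in SThdh111/111, and Bdnf, lower in it.

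Markers of other cell types were read beside these results. Over all named genes 29% were called, 13.1% higher and 15.9% lower. Of 14 pan-neuronal markers, 0 were higher and 5 lower in SThdh111/111. The 35.7% called were thus all lower, a share of little precision in so short a list. Among them were Stmn1 (-1.36), Dpysl3 (-4.46) and Ncam1, which was above the floor on 1 SThdh111/111 and 4 SThdh7/7 arrays and differed by -2.63 once its dim values were raised to the floor. Ncam1 lost its call without probe sets ending in _x_at, _s_at or _a_at (-1.35, adjusted p = 0.16). The summed intensity of the list was 7564 to 8177 in SThdh111/111 and 19912 to 20487 in SThdh7/7. Stmn1 and Dpysl3 made up 57.6% to 60.5% of it in SThdh111/111 and 75.5% to 78% in SThdh7/7, and without them it was 3120 to 3352 in SThdh111/111 and 4406 to 4904 in SThdh7/7. Of the defining neuronal markers, Rbfox3, Elavl3, Elavl4 and Dcx had means of 5.47 to 7.12 in SThdh111/111 and 5.59 to 7.26 in SThdh7/7. These were around or below the floor, and none of them was called. The remaining one, Map2, was above the floor on all 8 arrays, at 10.34 ± 0.05 in SThdh111/111 and 10.86 ± 0.10 in SThdh7/7. Map2 was called lower (-0.52, adjusted p = 1.8e-04 in limma). Of 11 neural progenitor markers, of which 10 were tested and 60% called, 1 was higher (Sox9, 1.25) and 5 lower, with Hes1 at -2.12, Sox2 at -2.06 and Pax6 at least 6.96-fold lower. Their summed intensity was 48920 to 52851 in SThdh111/111 and 54213 to 59889 in SThdh7/7. Of 12 mesenchymal markers 9 were higher and 1 lower (Acta2, -1.76), a share of 83.3%. Acta2 differed by -0.96 with the mean over its probe sets and was not called without probe sets ending in _x_at, _s_at or _a_at (-0.62, adjusted p = 0.44). At its brightest probe set Dcn was at least 162-fold higher, with a difference of 9.41, which was 4.83 with the mean over its probe sets. Col1a2 differed by 4.34 and Postn by 3.21. The summed intensity of the mesenchymal markers was 109873 to 127573 in SThdh111/111 and 31412 to 33156 in SThdh7/7. Their part in the results for L1cam, Dnm1, Stmn2 and Bdnf was not tested. In bulk RNA, fewer cells of a type and less RNA per cell cannot be told apart.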

How the data were processed

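Total RNA from 4 SThdh111/111 and 4 SThdh7/7 samples was hybridised to Affymetrix arrays, per the labels. The deposited intensity values are linear, 1 per probe set and array. GCRMA is the only tool named in the submitters' processing notes, but the 2% trimmed mean was 500 on every array, a form GCRMA does not give, and which tool made them remains unclear. The number of arrays limits the precision. Log2 of the deposited intensity was fitted with limma 3.58.1 in R 4.3.3 (lmFit, eBayes with an intensity trend, two-sided) on the 41409 of 45037 non-control probe sets that reached a log2 of 4 on 4 or more of the 8 arrays, Benjamini-Hochberg adjusted over all of them, and called at an adjusted p under 0.05. The platform annotation gave 34945 probe sets 1 gene, 932 several and 9160 none. Each gene was read from its brightest probe set (highest mean over all arrays). Per-array values are given for Rest, for called members and for members above the floor on all arrays. From the other lists the rule named up to 3 called genes in each direction by adjusted p. Members, lists and the floor were chosen with earlier results of these data known. The labels state no pairing by sample number, and none was seen. Deviations of same-numbered samples correlated at 0.004, -0.007, -0.012 and 0.003 over all probe sets. Many of these are dim, so such values cannot exclude a pairing. The fit was tested on simulated data with the spread of these arrays, which gave 0 calls without a change. It recovered 31% of 100 changes of log2 1 and 47% of 100 changes of log2 2. Among probe sets with a mean log2 of at least 8 it recovered 81.1% and 100%. A missing call of a dim member is therefore weak evidence of no change. Alternatives changed the filter, normalization, trend, weights, probe sets, floor and samples. Promoter sequences are RefSeq's.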

Additional observations from a re-analysis of the deposited data

Results flagged for a closer look

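In 11 of the 114 groups of 4 arrays examined, 1 array stood far from the other 3 by Dixon's criterion, which chance meets in about 1 group in 20. Of these groups, 9 belong to dim members. Syn1 was at 5.44 in SThdh111/111 sample 4, against 7.94 to 8.23 in the others of that line. Scg2 was at 4.41 in SThdh111/111 sample 3, against 6.49 to 6.76. Unc13a was at 3.97 in SThdh111/111 sample 2, against 6.72 to 7.12. Celsr3 was high, at 7.64, in SThdh111/111 sample 4, against 4.91 to 4.99, and Calb1 at 6.63 in SThdh111/111 sample 3, against 5.39 to 5.59. In SThdh7/7, Snap25 was high in sample 1 (5.93 against 1.69 to 2.24) and Trpv1 in sample 2 (7.56 against 6.64 to 6.75). Tubb3 was low in SThdh7/7 sample 2 (4.20 against 6.32 to 6.60) and Scn3b in sample 4 (6.64 against 7.17 to 7.27). Without SThdh7/7 sample 1, Snap25 differed by 2.44 with an adjusted p of 0.046 in limma, although every array was below the floor. The remaining groups were bright: Ctdsp2 at 12.81 in SThdh111/111 sample 1, where the others were all at 12.79, and Bdnf at 10.15 in SThdh111/111 sample 1, against 9.77 to 9.81, which was the SThdh111/111 array closest to SThdh7/7.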

How the results depend on the processing

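The count of called members was 3, and 2 to 4 over 20 alternatives, with the same range when each sample was left out. L1cam was called in all 20, and Dnm1 in the 19 that gave it a value. Rest differed by 0.13 to 0.31 and was called in 0 of 20, by 0.13 to 0.21 when samples were left out. The number of called probe sets was 9288, 8115 to 8754 with a sample left out, and 6132 of 32876 tested without probe sets ending in _x_at, _s_at or _a_at. In that setting Aldh1l1, an astrocyte marker, turned from -2.47 to 1.16 (adjusted p = 0.39), read from another probe set. With the sample number as a block, 2 members (L1cam and Dnm1) and 8828 probe sets (probe sets called over the whole array) passed, and Stmn2 was lost (adjusted p = 0.064). Each array's own floor, chosen after seeing the data, left 7 member genes above it on all arrays, and a floor without SThdh7/7 samples 1 and 2 gave 8. RE1 matches lying wholly before the start site were found in 4 member genes in place of 5. Centring arrays moved the median of all kept probe sets from -0.12 to 0.04, and L1cam and Dnm1 stayed called. Signal over background limits most members: genes below the floor on all arrays had standard errors of 0.43 to 0.95, against 0.08 to 0.23 for genes above it on all arrays.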

Other observations

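Glial and immune markers were mostly dim. Of 10 astrocyte markers, 3 were higher in SThdh111/111 and 1 was lower. Clu, a secreted chaperone, was at 11.65 ± 0.06 in SThdh111/111 and 9.53 ± 0.21 in SThdh7/7 (SD, n = 4 each), and Gja1, the gap junction protein connexin, at 12.76 ± 0.05 in SThdh111/111 and 12.04 ± 0.12 in SThdh7/7. The glutamate transporter Slc1a3 was at 8.73 ± 0.19 in SThdh111/111, with 4 arrays above the floor, and 6.91 ± 0.55 in SThdh7/7, with 2. Gfap, the astrocyte intermediate filament, was close to the floor at 7.51 in SThdh111/111 and 7.11 in SThdh7/7, and was not called. Of 8 oligodendrocyte markers, of which 6 were tested, 1 was lower, Cnp with a difference of -0.47, and Mog, Olig1 and Olig2 were below the floor on all arrays but 1 of Olig1 in SThdh7/7. Of 9 microglia markers, Csf1r was higher by 0.49 and Cd68 lower, at 8.80 ± 0.20 in SThdh111/111 and 10.56 ± 0.08 in SThdh7/7, while Aif1, Itgam, Ptprc and C1qa were below the floor on every array. The call for Cnp was lost when arrays were centred on their medians (-0.32, adjusted p = 0.13), when no intensity trend was fitted (adjusted p = 0.057) and without SThdh7/7 samples 1 and 2 (-0.34, adjusted p = 0.094). Csf1r lost its call with the mean over its probe sets (0.28, adjusted p = 0.28), and Slc1a3 without probe sets ending in _x_at, _s_at or _a_at (1.79, adjusted p = 0.081). The shares called were 40% of the tested astrocyte, 16.7% of the oligodendrocyte and 22.2% of the microglia markers, against 29% of all named genes.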
